A study of Mus musculus with 16 samples.

Results

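Complement and coagulation are the blood's cascades of defence and clotting, and hepatocytes make most of their plasma proteins. In complement, the classical and lectin routes and the alternative loop converge on the cleavage of C3 and, beyond it, on the membrane attack complex of C5 to C9, which pierces target membranes. In coagulation, the contact system and the vitamin K dependent proteases converge on thrombin, which turns fibrinogen into fibrin, and plasmin dissolves the clot.

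The 36 genes described here are liver-made members of these cascades, named gene by gene, and all 36 were found among the 54838 genes of the count table. They fall into 8 sets: 8 genes that start the classical and lectin routes, 2 of C3 and the alternative loop, 3 plasma inhibitors of complement, 6 of terminal complement, 4 of the contact system, 7 vitamin K dependent factors with their cofactor, 4 of fibrin formation and 2 of fibrinolysis. They were measured by RNA-seq in 16 libraries of mouse liver, in 4 groups of 4. Liver tumor tissue and the liver around it (peri-tumor tissue) came from 4 mice given a traditional Chinese medicine decoction (TCM) and from 4 control mice. The groups are TCM tumors, TCM peri-tumor tissue, control tumors and control peri-tumor tissue, and each mouse gave 1 library of each tissue. All 8 mice, controls included, carry the genotype HrasG12V, an activated form of the Ras oncogene, and no tumor-free liver is among the groups. The labels give 3 months for all of them, which may be an age or a length of treatment. They name Ras-transgenic mice and mice induced with DEN (diethylnitrosamine, a liver carcinogen) together, but do not state if DEN was used here. The transgene's promoter, the mouse strain and the recipe and dose of the decoction are likewise not stated in these sources. The series asks how the decoction acts on liver tumors.

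Libraries held 13947483 to 16194224 counts, and every member had at least 206 counts in each of them. The labelled tissues were checked on genes outside the list. Gpc3 and Afp, which mark liver tumors, were higher in tumors than in peri-tumor tissue in both treatments (log2 fold changes 7.22 and 5.46 in TCM mice and 7.28 and 6.83 in control mice). Hras itself passed the test in 0 of 5 comparisons, with adjusted p of 0.0735 to 0.777. The hepatocyte markers Alb, Ttr, Apoa1, Trf and Apob were high in every group, with Alb between 20466 and 51466 FPKM over all libraries. Control mouse 4 stood apart from the other control mice over all genes tested as well as for several members. Values without its 2 libraries are given for those members.

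Within a group, levels are given as CPM (counts divided by the scaled library total in units of 1e6), for mice 1 to 4 in that order, and as mean ± SD of 4 mice. Levels of different genes are compared as FPKM, which also divides by gene length. Log2 fold changes carry their standard error (SE) and the adjusted p of edgeR's quasi-likelihood test after Benjamini-Hochberg adjustment over all 14865 genes tested. A gene is said to have risen, fallen or been called where this p was under 0.05. Transcripts of C1ra, C2, C4b, Cfb and Klkb1 share 50.8%, 58.0%, 35.2%, 81.4% and 42.7% of their 50-base words with other genes, and 54.9% of the exon bases of Masp2 lie opposite Tardbp, so the counts of these 6 genes are uncertain.

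The 3 fibrinogen chains and C3 were the most abundant members in every group. C3, the hub of complement, had 1109.8 ± 115 FPKM in TCM tumors, 884 ± 55.6 in TCM peri-tumor tissue, 1623 ± 116 in control tumors and 2048 ± 426 in control peri-tumor tissue. The fibrinogen chain Fgg had 1709 ± 157 FPKM in TCM tumors, 1483 ± 135 in TCM peri-tumor tissue, 1654 ± 259 in control tumors and 1979 ± 696 in control peri-tumor tissue. In control peri-tumor tissue C3 and Fgg led the list, and the difference between their means was smaller than the SD of either. Kng1 followed these 4 genes in both groups of tumors. At the low end Masp1, a protease of the lectin route, had 11.3 ± 2.80 FPKM in TCM tumors, 18.5 ± 1.18 in TCM peri-tumor tissue, 9.46 ± 0.305 in control tumors and 21.8 ± 1.79 in control peri-tumor tissue. Together the 36 genes took 4.10 ± 0.0908% of all counts in TCM tumors, 3.40 ± 0.0930% in TCM peri-tumor tissue, 4.73 ± 0.182% in control tumors and 5.22 ± 0.517% in control peri-tumor tissue. The complement genes among them took 1.48 ± 0.105% in TCM tumors, 1.42 ± 0.0542% in TCM peri-tumor tissue, 1.82 ± 0.0549% in control tumors and 2.50 ± 0.181% in control peri-tumor tissue. The coagulation and fibrinolysis genes took 2.63 ± 0.0936% in TCM tumors, 1.98 ± 0.0570% in TCM peri-tumor tissue, 2.91 ± 0.134% in control tumors and 2.72 ± 0.476% in control peri-tumor tissue. The complement share was largest in control peri-tumor tissue, with no overlap with the other 3 groups.

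**Figure D1:**
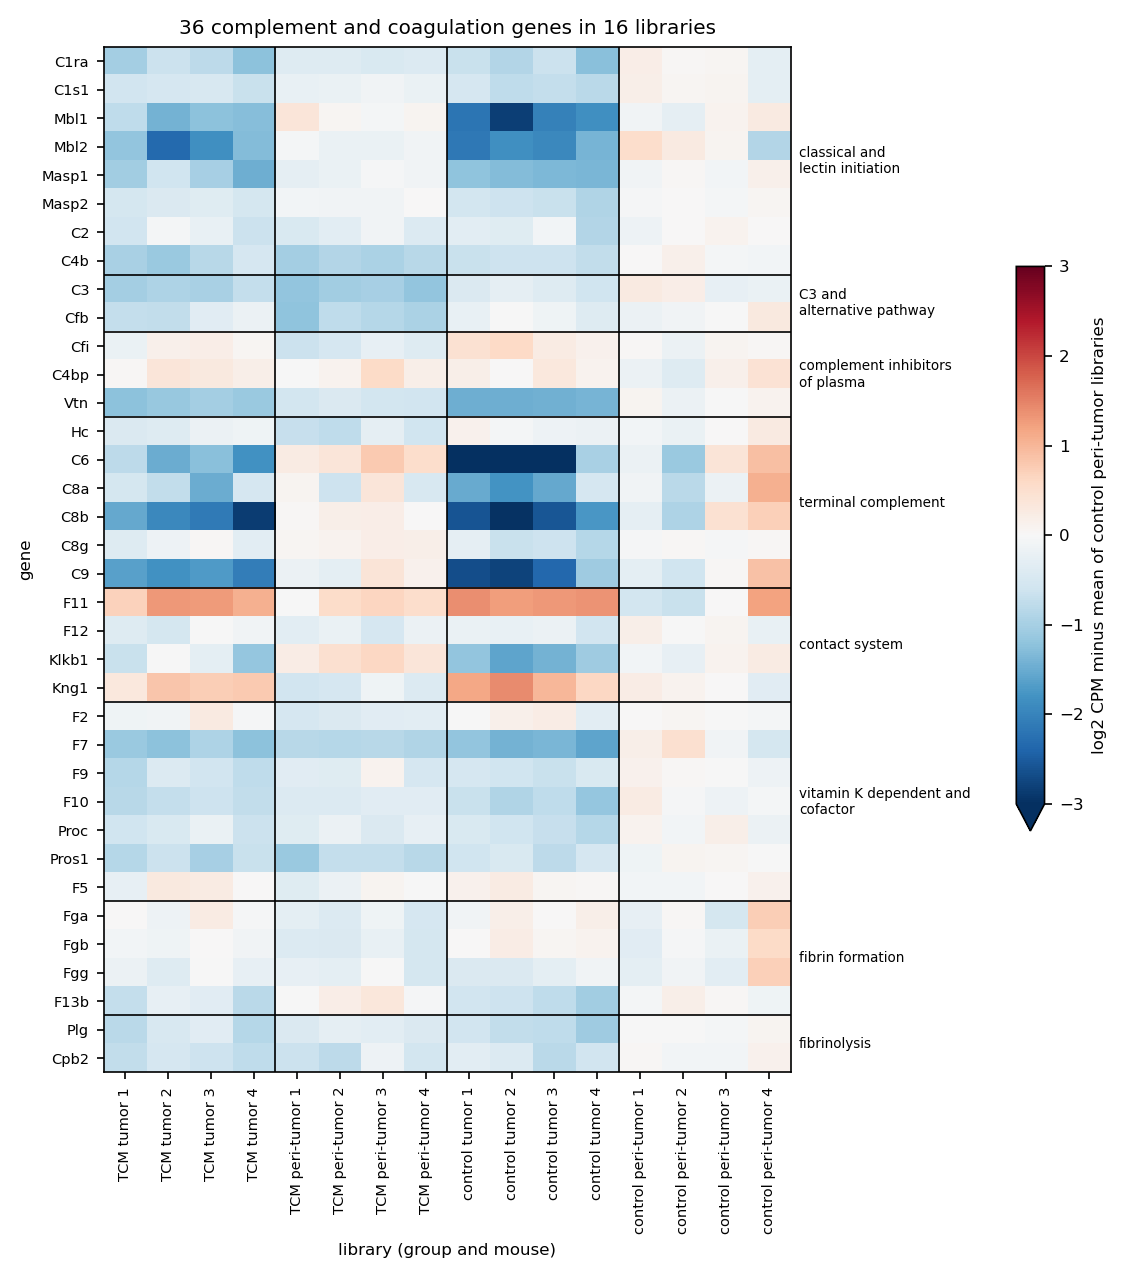
Log2 CPM of the 36 genes (rows, by cascade) in each of the 16 libraries (columns), minus the mean of the 4 control peri-tumor libraries, with blue for lower and red for higher and the colour scale ending at 3 on either side (C6 in control tumors 1 to 3 lies past its end). The deepest blue lies on Mbl1, Mbl2, C6, C8b and C9 in tumors, and F11 and Kng1 are redder in tumors. C3, C4b, Cfb and Pros1 are lower in both TCM tissues, and C3, C4b and Pros1 are also lower in control tumors.

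In tumors of both treatments Mbl1, Mbl2, C6, C8b and C9 fell, Kng1 rose, and the fibrinogen chains were not called. In TCM tumors 14 of the 36 genes fell and 4 rose, where 15.6% of all genes tested fell and 17.3% rose (32.9% in either direction). In control tumors 23 fell and 3 rose, where 21.2% of all genes fell and 22% rose (43.2% in either direction). The median log2 fold change of the 36 was -0.21 in TCM mice and -0.62 in control mice, and that of all genes was 0.0043 and 0.0010. All 4 mice of the tumor group lay below all 4 of the peri-tumor group for 15 members in TCM mice (16.6% of all genes) and for 21 in control mice (18.8%), and above them for 6 members in TCM mice (17.3%) and 3 in control mice (20%). The fall of 14 in TCM mice was 9 without tumor 4 of the TCM mice, and the rise of 4 was 2 without peri-tumor library 1 or without tumor 3 of the TCM mice. In bulk tissue, fewer cells of a type and less RNA per cell cannot be told apart.

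The genes that open the classical and lectin routes mostly fell, with 6 of 8 called lower in TCM tumors and 7 of 8 in control tumors. Mbl1, a mannose-binding lectin that recognises sugars on microbes, had 83.5, 53.0, 60.4 and 58.4 CPM in TCM tumors against 185, 149, 136 and 151 CPM in TCM peri-tumor tissue. It had 31.1, 20.2, 34.7 and 39.6 CPM in control tumors against 133, 118, 154 and 171 CPM in control peri-tumor tissue. Every tumor lay below every peri-tumor library in both treatments, with log2 fold changes of -1.28 ± 0.19 (adjusted p = 0.00013) in TCM mice and -2.20 ± 0.20 (adjusted p = 6.52e-07) in control mice. Its relative Mbl2 had 179.8, 81.1, 114 and 166 CPM in TCM tumors against 387, 354, 354 and 377 CPM in TCM peri-tumor tissue. In control mice Mbl2 had 92.3, 113, 107 and 155 CPM in tumors against 582, 487, 430.3 and 222 CPM in peri-tumor tissue, with mouse 4 the lowest of the peri-tumor libraries. Its log2 fold changes were -1.45 ± 0.27 (adjusted p = 0.000844) in TCM mice and -1.88 ± 0.28 (adjusted p = 6.22e-05) in control mice. Mbl2 had -2.30 in control mice (adjusted p = 5.45e-06) without both libraries of control mouse 4. The lectin-bound proteases fell too. Masp1 had 114 ± 28.0 CPM in TCM tumors against 205 ± 15.4 CPM in TCM peri-tumor tissue, and 91.6 ± 5.19 CPM in control tumors against 227 ± 18.1 CPM in control peri-tumor tissue (log2 fold changes -0.85 ± 0.14 and -1.31 ± 0.14, adjusted p = 0.000288 and 3.29e-06). Masp2, which cleaves C4 and C2, fell by less (-0.39 ± 0.089 in TCM mice and -0.68 ± 0.089 in control mice, adjusted p = 0.00314 and 1.99e-05).

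C1ra and C1s1, the proteases of the classical route that sit on C1q, fell in both treatments. C1ra had log2 fold changes of -0.49 ± 0.15 (adjusted p = 0.0194) in TCM mice and -0.86 ± 0.15 (adjusted p = 0.000299) in control mice, and C1s1 had -0.38 ± 0.11 (adjusted p = 0.0165) and -0.70 ± 0.11 (adjusted p = 0.00012). In TCM mice the call of C1ra was lost without tumor 1 (-0.45, adjusted p = 0.0575) or tumor 4 (-0.39, adjusted p = 0.0731), and that of C1s1 without tumor 4 (-0.33, adjusted p = 0.0584). C4b, the C4 protein that both routes cleave, fell in control tumors (-0.67 ± 0.13, adjusted p = 0.000727) and had 0.082 ± 0.13 in TCM tumors (adjusted p = 0.677). C2, which joins C4 in the C3-cleaving enzyme, was called in neither, with -0.044 ± 0.16 in TCM mice and -0.39 ± 0.16 in control mice (adjusted p = 0.861 and 0.0617). With the mouse as a block C2 fell in control tumors (-0.41, adjusted p = 0.0319). It also fell there without tumor 3 of the control mice (-0.53, adjusted p = 0.0183) and without tumor 1, 2 or 4 of the TCM mice (adjusted p = 0.0454, 0.0361 and 0.0385).

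At the hub, C3 fell modestly in control tumors. It had 5682, 6132, 5869 and 7011 CPM in TCM tumors against 5092, 5606, 5808 and 5135 CPM in TCM peri-tumor tissue, with a log2 fold change of 0.19 ± 0.16 (adjusted p = 0.382). In control mice it had 8612, 9632, 8863 and 7617 CPM in tumors against 13873, 13287, 9701 and 10042 CPM in peri-tumor tissue (-0.43 ± 0.16, adjusted p = 0.0353). Its call in control mice was lost without peri-tumor library 1 (-0.34, adjusted p = 0.116) or 2 (-0.39, adjusted p = 0.0726) and without tumor 1 (-0.46, adjusted p = 0.0561) or 4 (-0.39, adjusted p = 0.0816). A fit of only the compared groups lost this call too. Cfb, the protease of the alternative loop, rose in TCM tumors (0.46 ± 0.16, adjusted p = 0.0399) and had -0.19 ± 0.16 in control tumors (adjusted p = 0.36). The rise of Cfb was lost with the mouse as a block (0.45, adjusted p = 0.0564), with no filter or with only the compared groups fitted. It was also lost without peri-tumor library 1, 3 or 4 of the TCM mice (0.37, 0.48 and 0.45, adjusted p = 0.123, 0.0563 and 0.0782), without tumor 3 or 4 (0.41 and 0.35, adjusted p = 0.0996 and 0.119) or without control peri-tumor library 3 (0.45, adjusted p = 0.051).

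The 3 plasma inhibitors went different ways. Vtn, vitronectin, which binds the assembling membrane attack complex and also stabilises the inhibitor of plasminogen activators, had 1138, 1215, 1323 and 1229 CPM in TCM tumors against 1808, 1970.2, 1830.4 and 1784 CPM in TCM peri-tumor tissue. It had 968, 961, 986 and 1020.1 CPM in control tumors against 2822, 2348, 2654 and 2882 CPM in control peri-tumor tissue. The tumor libraries of each treatment lay in a narrow band below the peri-tumor ones, with log2 fold changes of -0.59 ± 0.11 (adjusted p = 0.000609) in TCM mice and -1.44 ± 0.11 (adjusted p = 1.51e-07) in control mice. Cfi, the protease that degrades C3b and C4b, rose in TCM tumors (0.50 ± 0.14, adjusted p = 0.00941) and in control tumors (0.36 ± 0.14, adjusted p = 0.04). The rise in control tumors was close to the threshold, and no filter or a fit of only the compared groups lost it. It was lost without any 1 of tumors 1, 2 and 3 (0.31, 0.26 and 0.38, adjusted p = 0.115, 0.156 and 0.0516) or of peri-tumor libraries 1, 2 and 3 of the control mice (0.38, 0.29 and 0.39, adjusted p = 0.0646, 0.131 and 0.0559). Leaving out tumor 2 or 4 or peri-tumor library 2 or 4 of the TCM mice, which share the fit, also lifted it past the threshold (adjusted p = 0.0561, 0.0576, 0.0516 and 0.0503). C4bp, a cofactor of Cfi, had -0.011 ± 0.17 in TCM mice and 0.12 ± 0.17 in control mice and was not called (adjusted p = 0.971 and 0.587).

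Terminal complement held the deepest falls. C6, the component that joins C5b, had 120.3, 73.7, 87.1 and 59.1 CPM in TCM tumors against 246, 267, 359 and 301 CPM in TCM peri-tumor tissue. In control mice it had 16.6, 14.3, 18.8 and 107 CPM in tumors against 184, 96.3, 272 and 391 CPM in peri-tumor tissue. Tumors 1 to 3 of the control mice were the lowest of all 16 libraries and tumor 4 lay above 1 control peri-tumor library, while the TCM groups did not overlap. The log2 fold changes of C6 were -1.79 ± 0.56 (adjusted p = 0.0229) in TCM mice and -2.59 ± 0.58 (adjusted p = 0.002) in control mice. Without both libraries of control mouse 4 the value in control mice was -3.50 (adjusted p = 3.44e-06), and without its tumor alone it was -3.84. In TCM mice the call of C6 was lost without peri-tumor library 3 (-1.68, adjusted p = 0.0509), tumor 2 (-1.71, adjusted p = 0.0579) or tumor 4 (-1.64, adjusted p = 0.068).

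C8b, the beta chain of C8, had 96.7, 73.3, 63.8 and 38.5 CPM in TCM tumors against 285, 316, 318 and 281 CPM in TCM peri-tumor tissue. It had 45.9, 35.3, 46.8 and 83.2 CPM in control tumors against 230.5, 147, 384 and 458 CPM in control peri-tumor tissue. No tumor reached a peri-tumor library in either treatment, and the log2 fold changes were -2.14 ± 0.35 (adjusted p = 0.000231) and -2.53 ± 0.35 (adjusted p = 3.52e-05). C9, which polymerises into the pore, had 194, 170.5, 185 and 141 CPM in TCM tumors against 529.5, 484, 787 and 655 CPM in TCM peri-tumor tissue. It had 94.5, 87.5, 118 and 283 CPM in control tumors against 485, 395, 610.3 and 1092 CPM in control peri-tumor tissue, with mouse 4 the highest in both tissues. The log2 fold changes of C9 were -1.83 ± 0.37 (adjusted p = 0.00124) in TCM mice and -2.15 ± 0.37 (adjusted p = 0.000238) in control mice. Without both libraries of control mouse 4, control tumors had -2.60 for C8b (adjusted p = 3.25e-05), -2.35 for C9 (adjusted p = 1.57e-06) and -1.32 for C8a (adjusted p = 0.00225). The log2 fold changes of the other chains of C8 were closer to 0. C8a had -0.66 ± 0.38 (adjusted p = 0.205) in TCM tumors and fell in control tumors (-1.41 ± 0.39, adjusted p = 0.0077, and -0.92, adjusted p = 0.0343, without control peri-tumor library 4). C8g, the small lipocalin-like chain, had -0.32 ± 0.12 (adjusted p = 0.0505) in TCM tumors and fell in control tumors (-0.59 ± 0.12, adjusted p = 0.0011). In TCM tumors C8g was called lower without TCM tumor 3 (-0.41, adjusted p = 0.0231), control peri-tumor library 4 (adjusted p = 0.0493) or control tumor 1 or 4 (adjusted p = 0.0293 and 0.0408). Hc, the mouse gene of C5, was called in neither (0.29 ± 0.14 in TCM mice and -0.070 ± 0.14 in control mice, adjusted p = 0.138 and 0.727), and it was called higher in TCM tumors without TCM peri-tumor library 3 (0.41, adjusted p = 0.0409).

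The proteins of C8 are needed in equal numbers, so ratios of the chains' transcripts to that of C8g were compared. C8b FPKM over C8g FPKM was 0.324 ± 0.139 in TCM tumors against 1.12 ± 0.0811 in TCM peri-tumor tissue, and 0.341 ± 0.185 in control tumors against 1.25 ± 0.569 in control peri-tumor tissue (SD, n = 4 each). The lowest TCM peri-tumor ratio lay above the highest TCM tumor ratio, whereas in control mice tumor 4 lay above peri-tumor library 2. C8a over C8g overlapped between the tissues in both treatments. It was 1.07 ± 0.393 in TCM tumors against 1.30 ± 0.405 in TCM peri-tumor tissue, and 1.03 ± 0.624 in control tumors against 1.71 ± 0.981 in control peri-tumor tissue. Once group means were removed, C6, C8b and C9 varied together over the 16 libraries, with Pearson correlations of log2 CPM of 0.859 for C6 with C8b, 0.946 for C6 with C9 and 0.808 for C8b with C9, against a median of 0.129 over all 630 pairs of members. Without control mouse 4 these were 0.901, 0.847 and 0.692, and the median was 0.157. These libraries share mice and scaling, and the correlations are a description.

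Of the 36 genes, 28 have an entry in the RefSeq table of gene starts (GRCm38.p6), and the 250 bases before each start were searched on both strands for letters that liver factors are known to bind. The stretches before the starts of C6, C8b and C9 are shown because these 3 genes fell furthest of terminal complement in both treatments and share none of these letters. Positions are on GRCm38.p6. Capitals mark a half-site of HNF1 (GTTAAT), a C/EBP match (TTGCNNAA) or a STAT match (TTCNNNGAA), in either orientation. Bases inside the annotated gene are left out.
C6 (chr15:4726960-4727174, plus strand): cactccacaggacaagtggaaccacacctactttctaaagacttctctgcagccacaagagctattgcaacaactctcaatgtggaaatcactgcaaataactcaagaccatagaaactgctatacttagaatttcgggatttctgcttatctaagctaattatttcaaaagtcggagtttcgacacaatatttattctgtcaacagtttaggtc
C8b (chr4:104766067-104766316, plus strand): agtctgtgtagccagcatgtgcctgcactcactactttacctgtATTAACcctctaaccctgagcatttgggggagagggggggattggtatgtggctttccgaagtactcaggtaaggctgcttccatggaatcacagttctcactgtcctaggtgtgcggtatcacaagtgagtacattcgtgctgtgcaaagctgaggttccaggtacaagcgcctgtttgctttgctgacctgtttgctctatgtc
C9 (chr15:6445096-6445326, plus strand): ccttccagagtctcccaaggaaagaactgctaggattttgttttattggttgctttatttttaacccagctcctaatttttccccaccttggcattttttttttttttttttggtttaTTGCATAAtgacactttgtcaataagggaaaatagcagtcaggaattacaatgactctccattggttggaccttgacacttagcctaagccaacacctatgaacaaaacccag
C8b holds 1 HNF1 half-site, C9 holds 1 C/EBP match, and C6 holds none of the 3. No match says only that these letters are not in the window.

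The contact system split in both directions. F11 and Klkb1, which arose from 1 ancestral gene and lie beside each other on chromosome 8 (GRCm38, 45241174 to 45262031 and 45266689 to 45294859, both on the minus strand), moved oppositely in control tumors. F11, factor XI, had 104.5, 159, 158 and 135 CPM in TCM tumors against 64.6, 95.3, 101.2 and 93.8 CPM in TCM peri-tumor tissue. It had 171, 155, 159.8 and 165 CPM in control tumors against 44.3, 41.0, 65.0 and 149.6 CPM in control peri-tumor tissue, where mouse 4 lay far above the other 3. It rose in control tumors (1.12 ± 0.31, adjusted p = 0.00922) and had 0.65 ± 0.31 in TCM tumors (adjusted p = 0.126), although no TCM tumor overlapped the TCM peri-tumor libraries. Without control peri-tumor library 4 both values were called (0.65, adjusted p = 0.00869, in TCM mice and 1.70, adjusted p = 7.66e-06, in control mice). Leaving out both libraries of control mouse 4, F11 had 0.66 (adjusted p = 0.00899) in TCM mice and 1.66 (adjusted p = 2.55e-05) in control mice.

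Klkb1, plasma prekallikrein, which frees bradykinin from kininogen, had 173, 272, 224 and 123 CPM in TCM tumors against 321, 384, 426 and 357 CPM in TCM peri-tumor tissue. It had 122, 92.5, 103 and 132 CPM in control tumors against 258, 230.4, 298 and 324 CPM in control peri-tumor tissue. All tumors lay below all peri-tumor libraries of their treatment, with log2 fold changes of -0.91 ± 0.20 (adjusted p = 0.0027) in TCM mice and -1.30 ± 0.20 (adjusted p = 0.0001) in control mice. The ratio of F11 FPKM to Klkb1 FPKM was 1.36, 1.31, 1.59 and 2.47 in TCM tumors against 0.453, 0.558, 0.535 and 0.592 in TCM peri-tumor tissue, and 3.15, 3.76, 3.47 and 2.81 in control tumors against 0.386, 0.400, 0.491 and 1.04 in control peri-tumor tissue. The ratio was above every peri-tumor ratio of its own treatment in all 8 tumors. Since 42.7% of the words of Klkb1 are shared with other genes, which of the 2 transcripts was the more abundant cannot be told from these values.

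Kng1, kininogen, the substrate of kallikrein and cofactor of contact activation, had 3337, 4769.6, 4454 and 4623 CPM in TCM tumors against 1808, 1887, 2439 and 2015 CPM in TCM peri-tumor tissue. It had 5991, 7144, 5305 and 4117 CPM in control tumors against 3128, 2888, 2682 and 2105 CPM in control peri-tumor tissue. Both pairs of groups were apart, and Kng1 rose in both treatments (1.08 ± 0.19, adjusted p = 0.000497, in TCM mice and 1.06 ± 0.19, adjusted p = 0.000335, in control mice), with a difference between the treatments of 0.014 ± 0.27 (adjusted p = 0.986). Over the 16 libraries, with group means removed, Kng1 ran opposite to Mbl1, with a correlation of -0.897 and of -0.878 without control mouse 4, the lowest of all 630 pairs. F12, factor XII, which starts contact activation, was not called (0.045 ± 0.14 in TCM mice and -0.30 ± 0.14 in control mice, adjusted p = 0.841 and 0.101). Without control peri-tumor library 4, F12 fell in control tumors (-0.37, adjusted p = 0.0456), and without both libraries of that mouse it was not called (-0.32, adjusted p = 0.0853).

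**Figure D2:**
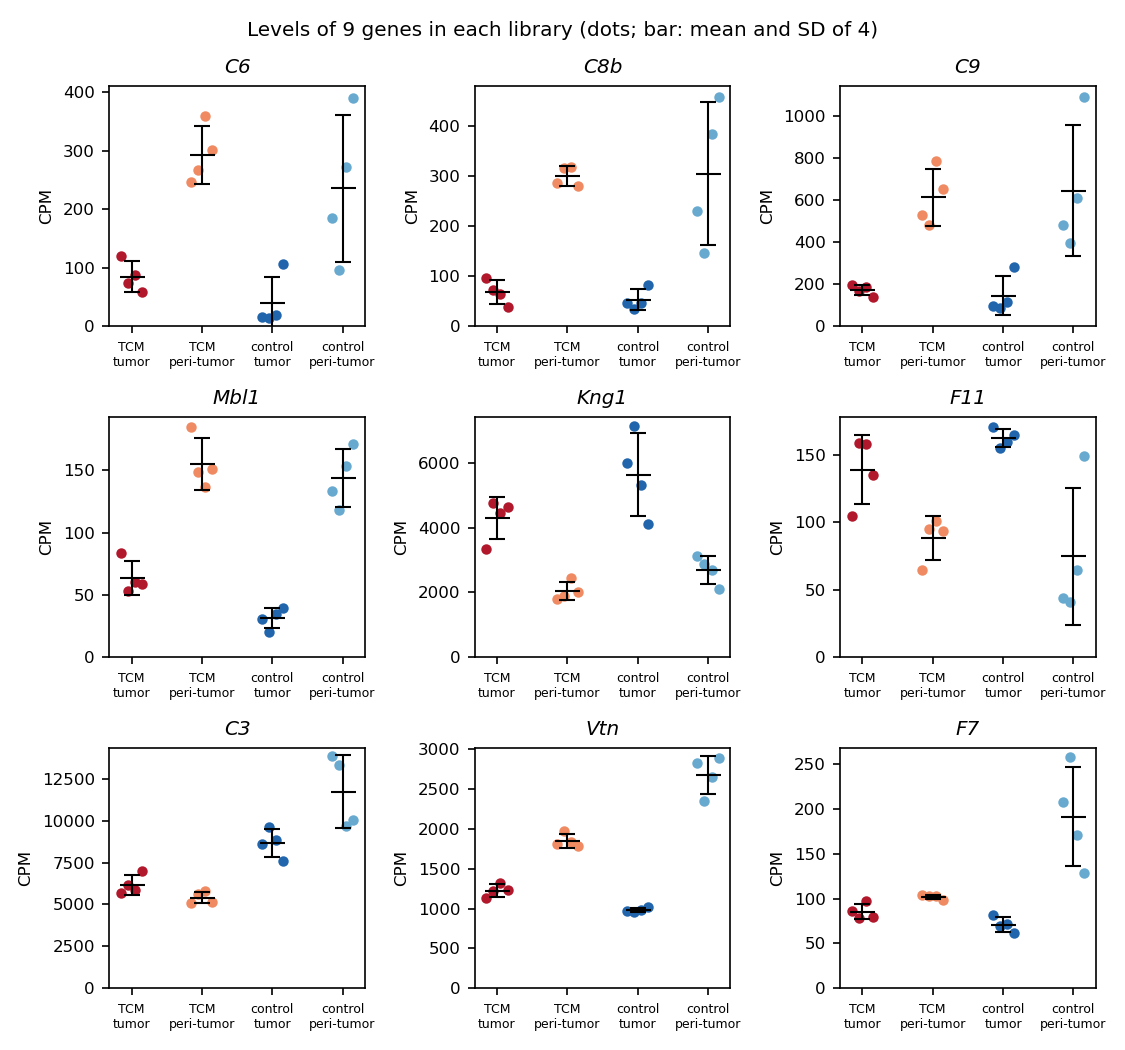
CPM of 9 genes in each library (dots), with the mean and SD of the 4 libraries of a group (black bars) and CPM axes that start at 0. C6, C8b, C9 and Mbl1 are low in tumors, Kng1 and F11 high, and C3, Vtn and F7 are highest in control peri-tumor tissue, while control mouse 4 is the highest dot for C6, C8b and C9 in both control groups.

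Among the vitamin K dependent factors, which need gamma-carboxylation to bind membranes, the starter of the extrinsic route had the deepest fall in control tumors. F7, factor VII, had 86.3, 78.9, 97.7 and 79.4 CPM in TCM tumors against 104, 102.4, 103 and 98.9 CPM in TCM peri-tumor tissue (-0.25 ± 0.16, adjusted p = 0.251). In control mice it had 82.0, 69.4, 71.5 and 61.6 CPM in tumors against 208, 258, 171 and 129 CPM in peri-tumor tissue (-1.43 ± 0.16, adjusted p = 6.12e-06). Tumors and peri-tumor tissue were apart in both treatments, and the 4 control peri-tumor libraries were the highest and the most spread. F10, factor X, fell in TCM tumors (-0.35 ± 0.12, adjusted p = 0.0334) and in control tumors (-0.87 ± 0.12, adjusted p = 2.86e-05). F9, factor IX, fell in TCM tumors (-0.39 ± 0.13, adjusted p = 0.0333) and in control tumors (-0.56 ± 0.13, adjusted p = 0.00299). Proc and Pros1, protein C and its cofactor protein S, which shut coagulation down, fell in control tumors (-0.65 ± 0.13 and -0.59 ± 0.11, adjusted p = 0.000744 and 0.000597). In TCM tumors they had -0.16 ± 0.13 and 0.051 ± 0.11 (adjusted p = 0.367 and 0.766).

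F2, prothrombin, rose in TCM tumors (0.40 ± 0.14, adjusted p = 0.0308) and had 0.024 ± 0.13 in control tumors (adjusted p = 0.904). F5, the cofactor of F10, was not called (0.20 ± 0.13 in TCM mice and 0.12 ± 0.13 in control mice, adjusted p = 0.281 and 0.507). Several calls in TCM mice were close to the threshold. Those of F2, F9 and F10 were lost with no filter, and that of F9 also with only the compared groups fitted. Leaving out 1 library lost them as well. That of F2 was lost without peri-tumor library 1 (0.37, adjusted p = 0.084) or 2 (0.39, adjusted p = 0.0729) or tumor 3 (0.31, adjusted p = 0.111). That of F9 was lost without peri-tumor library 3 (-0.24, adjusted p = 0.125), tumor 1 (-0.31, adjusted p = 0.11) or tumor 4 (-0.34, adjusted p = 0.0974). That of F10 was lost without any 1 of the 4 peri-tumor libraries or of tumors 1, 2 and 4, with log2 fold changes between -0.36 and -0.30 and adjusted p between 0.0544 and 0.097.

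The 3 fibrinogen chains, encoded side by side on chromosome 3, were called in none of the 5 comparisons with edgeR. With DESeq2 Fgb was called lower in TCM peri-tumor tissue (-0.42, adjusted p = 0.0474), and with limma-voom it was called higher in TCM tumors than in TCM peri-tumor tissue (0.36, adjusted p = 0.0324). Fga had 5535, 4942, 6499 and 5392 CPM in TCM tumors against 4517, 4176, 5060.1 and 3879 CPM in TCM peri-tumor tissue, and 5133, 6247, 5526 and 6182 CPM in control tumors against 4658, 5635, 3820.4 and 9220.0 CPM in control peri-tumor tissue. Control peri-tumor library 4 was the highest of all 16. The log2 fold changes of Fga, Fgb and Fgg were 0.34 ± 0.22, 0.32 ± 0.17 and 0.063 ± 0.21 in TCM mice (adjusted p = 0.258, 0.178 and 0.851) and -0.015 ± 0.22, 0.063 ± 0.17 and -0.38 ± 0.21 in control mice (adjusted p = 0.965, 0.801 and 0.164). Without both libraries of control mouse 4 those in TCM mice were 0.35, 0.33 and 0.074, of which Fgb was called (adjusted p = 0.0407), and those in control mice were 0.23, 0.25 and -0.19. The chains varied together, with correlations of 0.933 for Fga with Fgb, 0.927 for Fga with Fgg and 0.907 for Fgb with Fgg over 16 libraries with group means removed, and of 0.793, 0.788 and 0.740 without control mouse 4.

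The ratio of the chains was not the same in all groups. Fgg FPKM over Fgb FPKM was 1.33, 1.18, 1.38 and 1.28 in TCM tumors against 1.59, 1.55, 1.62 and 1.40 in TCM peri-tumor tissue, and 1.03, 0.893, 1.10 and 1.22 in control tumors against 1.45, 1.35, 1.31 and 1.57 in control peri-tumor tissue. The tumor ratio lay below the peri-tumor ratio in every library of either treatment. Fga over Fgb was 1.02 ± 0.0734 in TCM tumors, 1.01 ± 0.0381 in TCM peri-tumor tissue, 0.937 ± 0.0470 in control tumors and 0.973 ± 0.138 in control peri-tumor tissue, and these groups overlapped.

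**Figure D3:**
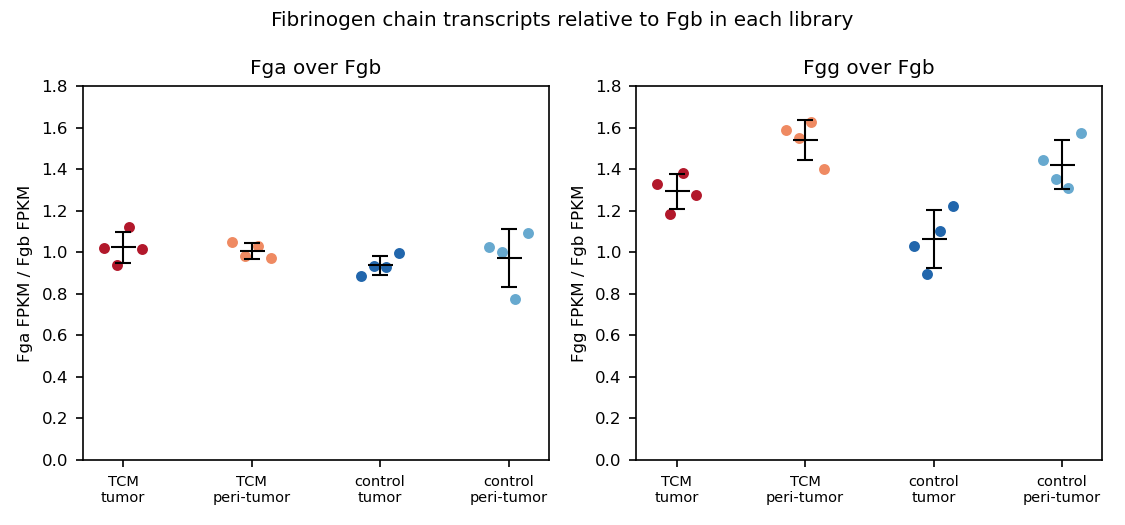
FPKM of Fga (left) and Fgg (right) over that of Fgb in each library (dots), with mean and SD of 4 (black bars) on axes that start at 0. Fga over Fgb overlaps between groups, whereas Fgg over Fgb is lower in tumors, at a mean of 1.29 against 1.54 in TCM mice and 1.06 against 1.42 in control mice.

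The stretches before the starts of the fibrinogen chains are shown because the chains varied together and yet differ in these letters, with capitals and build (GRCm38.p6) as for C6.
Fga (chr3:83025903-83026075, plus strand): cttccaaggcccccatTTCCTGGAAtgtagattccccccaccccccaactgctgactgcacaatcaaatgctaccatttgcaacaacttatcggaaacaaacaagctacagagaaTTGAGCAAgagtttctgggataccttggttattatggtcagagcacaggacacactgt
Fgb (chr3:83049864-83050113, minus strand): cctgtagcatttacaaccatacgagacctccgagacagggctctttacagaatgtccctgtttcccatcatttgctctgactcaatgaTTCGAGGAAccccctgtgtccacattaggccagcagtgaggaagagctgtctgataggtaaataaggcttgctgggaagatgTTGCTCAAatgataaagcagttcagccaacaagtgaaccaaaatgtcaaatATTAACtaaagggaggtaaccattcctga
Fgg (chr3:83007474-83007723, plus strand): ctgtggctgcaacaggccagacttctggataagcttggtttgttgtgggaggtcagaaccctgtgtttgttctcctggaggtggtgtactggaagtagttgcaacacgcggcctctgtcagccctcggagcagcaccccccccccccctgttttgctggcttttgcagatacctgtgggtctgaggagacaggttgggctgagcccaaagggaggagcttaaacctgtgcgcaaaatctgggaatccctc
Fga and Fgb each hold a STAT match, a C/EBP match and an HNF1 half-site in their 250 bases (that of Fga lies in the part not shown), and Fgg holds none of the 3. Over all 28 members with an entry, the HNF1 half-site occurred in 9 (32.1%, against 6.52% of 27025 genes), the C/EBP letters in 8 (28.6%, against 9.55%), the STAT letters in 6 (21.4%, against 7.18%) and the letters TATAAA in 3 (10.7%, against 13%). The HNF4 letters CAAAGTCCA occurred in 0 of 28 and in 0.381% of all genes. All these counts use the full 250 bases, including any inside an annotated gene, where the half-sites of C1ra and Fga lie. No matches of different motifs overlapped in the members, and a match is a description, not a site.

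F13b, the carrier subunit of factor XIII, which cross-links fibrin, fell in TCM tumors (-0.63 ± 0.14, adjusted p = 0.0031) and in control tumors (-0.74 ± 0.14, adjusted p = 0.000632). Plg, plasminogen, the precursor of plasmin, had 2009.7 ± 347 CPM in TCM tumors against 2393 ± 135 CPM in TCM peri-tumor tissue (-0.25 ± 0.14, adjusted p = 0.189). It fell to 1795 ± 237 CPM in control tumors, against 3068 ± 123 CPM in control peri-tumor tissue (-0.77 ± 0.14, adjusted p = 0.000407). Cpb2, the carboxypeptidase that slows fibrinolysis, had -0.14 ± 0.14 in TCM tumors (adjusted p = 0.48) and fell in control tumors (-0.52 ± 0.14, adjusted p = 0.00722).

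**Figure D4:**
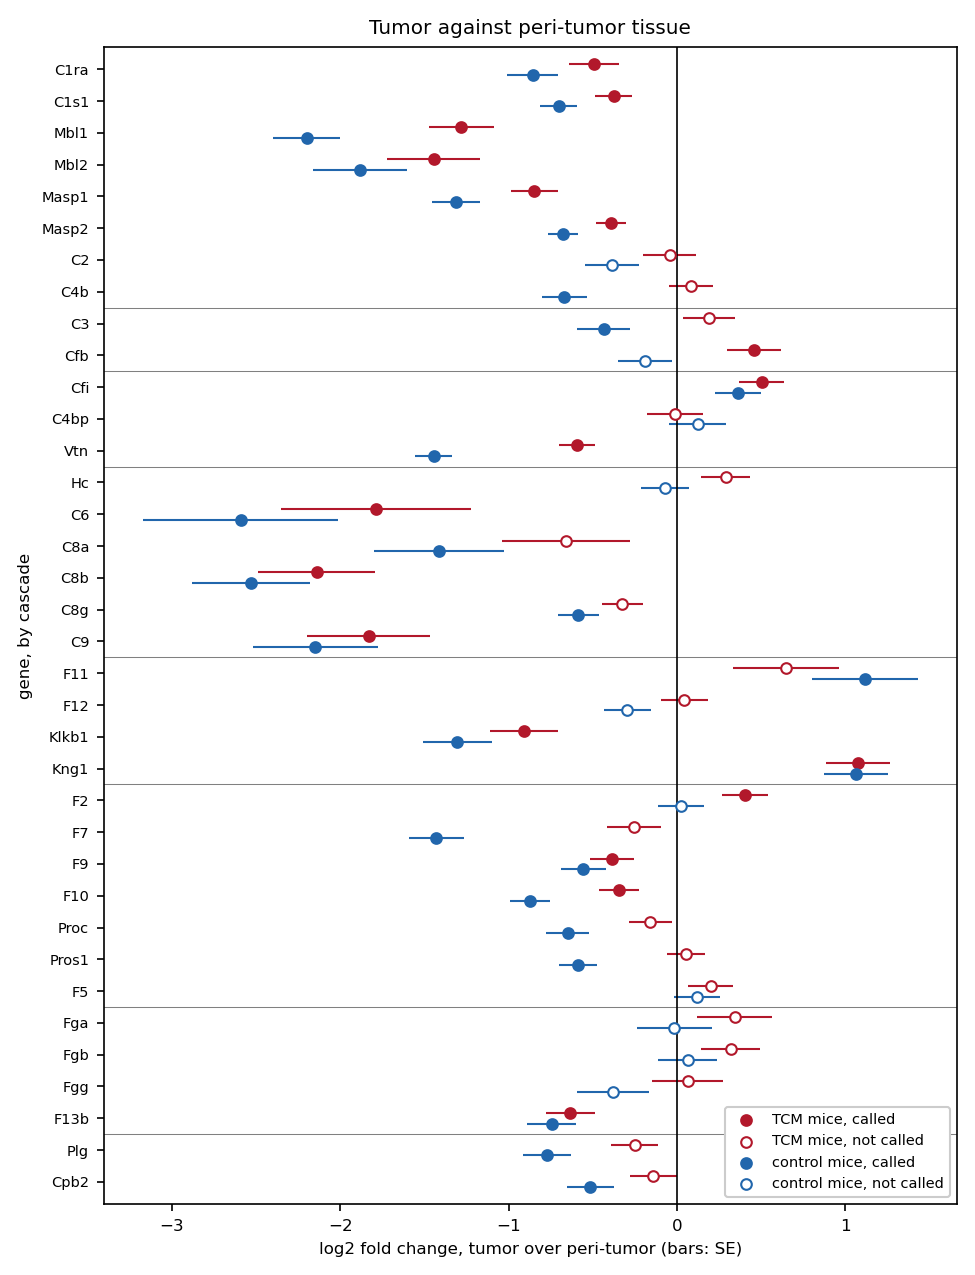
Log2 fold change of tumor over peri-tumor tissue for the 36 genes (rows, by cascade), in TCM mice (red) and control mice (blue), with bars for the SE and filled dots for calls at an adjusted p under 0.05. The blue dots lie further left than the red ones for most genes, the lowest are C6 and C8b, and Kng1 and Cfi lie right of 0 in both.

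Further plasma components of complement fell more often than they rose, and inhibitors of coagulation went both ways. Of all genes tested, 15.6% fell and 17.3% rose in TCM tumors, and 21.2% fell and 22% rose in control tumors. Of 17 tested complement regulators and further plasma components, 7 fell and 2 rose in TCM tumors and 10 fell and 0 rose in control tumors. Of 17 inhibitors of coagulation and fibrinolysis, 1 fell and 6 rose in TCM tumors, and 4 fell and 5 rose in control tumors. Serpinc1, antithrombin, had 662 ± 94.2 CPM in control tumors, against 1303 ± 221 CPM in control peri-tumor tissue (-0.98, adjusted p = 5.46e-05). Serpinf2, the plasmin inhibitor, had 1401 ± 239 CPM in TCM tumors, against 734 ± 67.9 CPM in TCM peri-tumor tissue (0.93, adjusted p = 0.00225). Of 10 genes of the vitamin K cycle and factor processing, 1 fell and 2 rose in TCM tumors, and 3 fell and 0 rose in control tumors. So 30% were called in each treatment, where 32.9% of all genes were called in TCM mice and 43.2% in control mice. Vkorc1, which recycles vitamin K, fell in control tumors (-1.08, adjusted p = 0.00525), and 50.5% of its words are shared with other genes.

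Most plasminogen activators and receptors rose. Of 9 plasminogen activators and receptors, 6 rose and 1 fell in TCM tumors and likewise 6 rose and 1 fell in control tumors. So 77.8% were called in each treatment, where 32.9% of all genes were called in TCM mice and 43.2% in control mice. Anxa2, a plasminogen receptor, had 151 ± 35.97 CPM in TCM tumors against 12.6 ± 3.63 CPM in TCM peri-tumor tissue, and 195 ± 59.8 CPM in control tumors against 11.7 ± 2.72 CPM in control peri-tumor tissue (log2 fold changes 3.58 and 4.05, adjusted p = 2.71e-07 and 6.04e-08). Plat, tissue plasminogen activator, rose at a low level, with 3.38 ± 2.68 CPM in TCM tumors against 0.357 ± 0.371 CPM in TCM peri-tumor tissue and 8.22 ± 0.656 CPM in control tumors against 0.216 ± 0.209 CPM in control peri-tumor tissue (log2 fold changes 3.26 and 5.24, adjusted p = 0.00143 and 2.41e-05). Of 14 cell-bound and extrahepatic coagulation genes, 4 rose and 1 fell in TCM tumors, and 6 rose and 0 fell in control tumors. So 35.7% were called in TCM mice and 42.9% in control mice, near the 32.9% and 43.2% of all genes. F2rl1, a protease-activated receptor, had 13.8 ± 5.49 CPM in TCM tumors against 0.383 ± 0.561 CPM in TCM peri-tumor tissue, and 25.5 ± 2.83 CPM in control tumors against 0.585 ± 0.235 CPM in control peri-tumor tissue (5.22 and 5.41, adjusted p = 6.34e-06 and 1.11e-06). Of 12 membrane regulators and receptors of complement, 2 rose and 4 fell in TCM tumors, and 3 rose and 4 fell in control tumors. So 50% were called in TCM mice and 58.3% in control mice, where 32.9% and 43.2% of all genes were. Cd59a, which blocks C9 on host cells, had 16.9 ± 2.08 CPM in TCM tumors, against 35.8 ± 1.61 CPM in TCM peri-tumor tissue (-1.08, adjusted p = 0.000152).

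Of 16 liver transcription factors, 5 fell and 1 rose in TCM tumors, where 15.6% of all genes fell and 17.3% rose, and 7 fell and 1 rose in control tumors, where 21.2% fell and 22% rose. Cebpa, a C/EBP factor of hepatocytes, had 433 ± 87.2 CPM in TCM tumors against 631 ± 142 CPM in TCM peri-tumor tissue, and 327 ± 21.2 CPM in control tumors against 661 ± 146 CPM in control peri-tumor tissue (-0.54 and -1.02, adjusted p = 0.0418 and 0.000608). Nr1h4, the bile acid receptor FXR, had 43.1 ± 6.18 CPM in TCM tumors against 83.8 ± 14.6 CPM in TCM peri-tumor tissue, and 34.6 ± 2.38 CPM in control tumors against 105.4 ± 32.6 CPM in control peri-tumor tissue (-0.96 and -1.61, adjusted p = 0.00151 and 1.28e-05). Of 21 other secreted hepatocyte proteins, 4 fell and 5 rose in TCM tumors, and 7 fell and 4 rose in control tumors, so 42.9% were called in TCM mice and 52.4% in control mice, where 32.9% and 43.2% of all genes were. Their median log2 fold change was 0.18 in TCM mice and -0.30 in control mice. Of 11 tested genes of the interleukin 6 axis, 1 fell and 2 rose in TCM tumors, and 4 fell and 3 rose in control tumors.

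Marker transcripts of other cell types differed between the tissues as well. Of all genes tested, 15.6% fell and 17.3% rose in TCM tumors, and 21.2% fell and 22% rose in control tumors. Summed levels of 10 Kupffer cell markers were 97.3 to 313 CPM in TCM tumors against 428 to 495 CPM in TCM peri-tumor tissue, and 217 to 299.7 CPM in control tumors against 661 to 1374 CPM in control peri-tumor tissue. Of these markers 6 fell in TCM tumors and 10 in control tumors. The 3 chains of C1q, which macrophages make and which C1ra and C1s1 bind, were not called in TCM tumors and all fell in control tumors. Of 10 markers of recruited macrophages 7 rose in TCM tumors and 8 in control tumors, with sums of 503 to 1426 CPM in TCM tumors against 106.3 to 144 CPM in TCM peri-tumor tissue and 1117 to 2667 CPM in control tumors against 196 to 240.1 CPM in control peri-tumor tissue. Of 11 stellate cell and fibroblast markers 6 rose and 2 fell in TCM tumors, and 6 rose and 1 fell in control tumors, with sums of 259.6 to 392 CPM in TCM tumors against 171 to 214 CPM in TCM peri-tumor tissue and 316 to 676 CPM in control tumors against 111 to 218 CPM in control peri-tumor tissue. Of 10 sinusoidal endothelial markers 1 rose and 1 fell in TCM tumors, and 1 rose and 5 fell in control tumors (sums of 204 to 395 CPM in TCM tumors against 259 to 386 CPM in TCM peri-tumor tissue and 301 to 347 CPM in control tumors against 310.5 to 588 CPM in control peri-tumor tissue). Of 7 tested cholangiocyte markers 3 rose and 0 fell in TCM tumors, and 4 rose and 1 fell in control tumors (sums of 448 to 1285 CPM in TCM tumors against 48.8 to 81.8 CPM in TCM peri-tumor tissue and 942 to 2269 CPM in control tumors against 39.7 to 104.6 CPM in control peri-tumor tissue, with Spp1 in this list and in that of recruited macrophages). No marker of these 5 lists was at 0 in a whole group, whereas up to 4 of 10 neutrophil, 1 of 10 platelet and 2 of 8 erythroid markers were. Platelet markers summed to at most 15.8 CPM, lymphocyte markers to at most 21.9 CPM and erythroid markers to at most 788 CPM in any library, and neutrophil markers to at most 14.7 CPM in all libraries but 1 control tumor, at 105.6 CPM. The part of these cell types in the members' values was not tested.

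Outside the tumors, the decoction group had less of the C3 branch. In TCM peri-tumor tissue 10 of the 36 genes were lower than in control peri-tumor tissue and 0 were higher, where 7.35% of all genes were lower and 6.71% higher (14.1% in either direction). No member was higher even at an unadjusted p under 0.05 in edgeR, where 17 were lower, and DESeq2 called 0 higher and 14 lower. The shares of all genes above do not apply to these counts, which use another threshold or method. F11 was called higher in TCM peri-tumor tissue without control peri-tumor library 4 (0.83, adjusted p = 0.00723, against 0.24 ± 0.31, adjusted p = 0.647, with it), and without both libraries of control mouse 4 it had 0.82 (adjusted p = 0.00838). The median log2 fold change of the members was -0.31, against -0.0042 over all genes, and 13 members lay with all 4 TCM libraries below all 4 control libraries (8.86% of all genes) and 1 with all 4 above (9.12%). The count of 10 was 6 without peri-tumor library 1 or 2 of the TCM mice.

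Values per mouse of C3 were 5092, 5606, 5808 and 5135 CPM in TCM peri-tumor tissue against 13873, 13287, 9701 and 10042 CPM in control peri-tumor tissue. The groups were apart, with a log2 fold change of -1.12 ± 0.16 (adjusted p = 0.0008). C4b had 1253, 1379.5, 1308 and 1428 CPM in TCM peri-tumor tissue against 2536, 2812, 2415 and 2394 CPM in control peri-tumor tissue (-0.92 ± 0.13, adjusted p = 0.000873). Cfb had 581, 797, 740.1 and 696 CPM in TCM peri-tumor tissue against 1183, 1248, 1330.1 and 1657 CPM in control peri-tumor tissue (-0.95 ± 0.16, adjusted p = 0.00232). All 3 feed the enzymes that cleave C3, and none of their TCM libraries reached a control library. Further along the cascade Hc was lower (-0.57 ± 0.14, adjusted p = 0.0172), whereas C6, C8a, C8b, C8g and C9 were not called (0.31 ± 0.55, -0.27 ± 0.38, -0.024 ± 0.33, 0.13 ± 0.12 and -0.072 ± 0.35, adjusted p = 0.744, 0.676, 0.972, 0.502 and 0.919). The call of Hc was lost without peri-tumor library 1 (-0.54, adjusted p = 0.0546) or 2 (-0.51, adjusted p = 0.0531) of the TCM mice.

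Of the inhibitors, Vtn had 1808, 1970.2, 1830.4 and 1784 CPM in TCM peri-tumor tissue against 2822, 2348, 2654 and 2882 CPM in control peri-tumor tissue, with no overlap (-0.53 ± 0.11, adjusted p = 0.00576). Cfi was lower (-0.44 ± 0.14, adjusted p = 0.041), and C4bp was not called (0.20 ± 0.17, adjusted p = 0.47). The call of Cfi was lost with the replicate number as a block (-0.45, adjusted p = 0.0525), without TCM peri-tumor library 1, 2 or 4 (-0.38, -0.42 and -0.46, adjusted p = 0.118, 0.0904 and 0.0684) and without control peri-tumor library 1 or 3 (-0.43 and -0.42, adjusted p = 0.0904 and 0.0986). No filter and a fit of only the compared groups lost this call too. The starters of the lectin route, which fell in tumors, were not called between the treatments in peri-tumor tissue (Mbl1 0.11 ± 0.19, Mbl2 -0.23 ± 0.27, Masp1 -0.15 ± 0.14 and Masp2 -0.069 ± 0.088, adjusted p = 0.75, 0.62, 0.52 and 0.649). C1ra had -0.43 ± 0.15 (adjusted p = 0.069), and it was called lower without control peri-tumor library 4 (-0.51, adjusted p = 0.0261), without control tumor 4 (-0.43, adjusted p = 0.0419) or with the replicate number as a block (-0.41, adjusted p = 0.0468).

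In coagulation, F7 had 104, 102.4, 103 and 98.9 CPM in TCM peri-tumor tissue against 208, 258, 171 and 129 CPM in control peri-tumor tissue, and the narrow TCM band lay below all controls (-0.91 ± 0.16, adjusted p = 0.00308). Pros1 had 45.8, 60.3, 60.8 and 55.7 CPM in TCM peri-tumor tissue against 90.5, 105.4, 103 and 98.8 CPM in control peri-tumor tissue (-0.84 ± 0.11, adjusted p = 0.000596). F2 and F9 had -0.39 ± 0.14 and -0.26 ± 0.13 (adjusted p = 0.0639 and 0.203), and F2 was called lower without control tumor 4 (-0.40, adjusted p = 0.0417) and F9 without TCM peri-tumor library 3 (-0.40, adjusted p = 0.0462). F10 was lower (-0.39 ± 0.12, adjusted p = 0.0407), and so was Cpb2 (-0.52 ± 0.14, adjusted p = 0.0241). The call of F10 was lost with the replicate number as a block (adjusted p = 0.0515), without any 1 of the 4 TCM peri-tumor libraries, without control peri-tumor library 1 or 2 and without control tumor 2, with log2 fold changes between -0.40 and -0.30 and adjusted p between 0.052 and 0.128. That of Cpb2 was lost without TCM peri-tumor library 1, 2 or 4 or control peri-tumor library 1 (-0.48, -0.44, -0.50 and -0.50, adjusted p = 0.0716, 0.0717, 0.0554 and 0.0564). The fibrinogen chains were not called (Fga -0.40 ± 0.22, Fgb -0.43 ± 0.17 and Fgg -0.33 ± 0.21, adjusted p = 0.24, 0.109 and 0.326), and without both libraries of control mouse 4 they had -0.10, -0.21 and -0.033. Without that mouse C1ra, C1s1, F2, Kng1 and Proc were also called lower in TCM peri-tumor tissue (-0.52, -0.29, -0.42, -0.52 and -0.38, adjusted p = 0.0101, 0.0393, 0.0251, 0.033 and 0.0413).

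Of 11 tested genes of the interleukin 6 axis, which drives the acute phase in hepatocytes, 6 were lower and 0 higher in TCM peri-tumor tissue, where 7.35% of all genes were lower and 6.71% higher. Socs3, its feedback inhibitor, had 5.26 ± 4.40 CPM in TCM peri-tumor tissue against 25.9 ± 6.36 CPM in control peri-tumor tissue (-2.29, adjusted p = 0.00459). Il6ra, the receptor chain, had 35.8 ± 14.9 CPM in TCM peri-tumor tissue against 107 ± 26.7 CPM in control peri-tumor tissue (-1.58, adjusted p = 0.0118). Of 16 liver transcription factors 3 were lower and 1 higher, among them Cebpb with 157 ± 19.2 CPM in TCM peri-tumor tissue against 298 ± 38.2 CPM in control peri-tumor tissue (-0.93, adjusted p = 0.00881) and Cebpd with 8.22 ± 2.97 CPM in TCM peri-tumor tissue against 18.9 ± 1.64 CPM in control peri-tumor tissue (-1.20, adjusted p = 0.00185). Of 21 other secreted hepatocyte proteins 3 were lower and 0 higher. Hpx, hemopexin, had 3227 ± 165 CPM in TCM peri-tumor tissue against 8357 ± 1855 CPM in control peri-tumor tissue (-1.37, adjusted p = 0.000591).

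Of 17 further complement regulators and plasma components 7 were lower and 0 higher, where 7.35% of all genes were lower and 6.71% higher. Serping1, the C1 inhibitor, had 734 ± 77.8 CPM in TCM peri-tumor tissue against 1179 ± 58.5 CPM in control peri-tumor tissue (-0.68, adjusted p = 0.00226). Of 17 inhibitors of coagulation 5 were lower and 1 higher, of 14 cell-bound coagulation genes 2 and 0, of 12 membrane regulators 2 and 0, of 10 vitamin K genes 2 and 0, and of 9 plasminogen activators and receptors 0 and 0. The 3 C1q chains were all lower, with C1qb at 36.9 ± 4.51 CPM in TCM peri-tumor tissue against 110.4 ± 33.0 CPM in control peri-tumor tissue (-1.58, adjusted p = 0.00128), and so were 7 of 10 Kupffer cell markers, whose sums were 428 to 495 CPM in TCM peri-tumor tissue against 661 to 1374 CPM in control peri-tumor tissue. Of the recruited macrophage markers 1 was lower, and of the sinusoidal and stellate markers 0 were called. The part of the macrophage markers in the members' values was not tested.

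Between the tumors of the 2 treatments few members differed. In TCM tumors 2 of the 36 genes were higher than in control tumors and 0 were lower, where 4.55% of all genes were higher and 2.72% lower (7.28% in either direction). For 3 members all TCM tumors lay above all control tumors (8.83% of all genes), and for 1 below (7.04%). At an unadjusted p under 0.05 in edgeR, 6 were higher and 2 lower. With DESeq2, 5 were higher and 1 lower, and without both libraries of control mouse 4, 6 and 1. The called shares of all genes above are for the adjusted p in edgeR with all libraries and do not apply to these further counts. The median log2 fold change was 0.089, against 0.0020 over all genes. Mbl1 had 83.5, 53.0, 60.4 and 58.4 CPM in TCM tumors against 31.1, 20.2, 34.7 and 39.6 CPM in control tumors, with no overlap (1.02 ± 0.19, adjusted p = 0.00826). Klkb1 had 173, 272, 224 and 123 CPM in TCM tumors against 122, 92.5, 103 and 132 CPM in control tumors, where TCM tumor 4 lay below control tumor 4 (0.82 ± 0.20, adjusted p = 0.0252). Its call was lost without TCM tumor 2 (0.66, adjusted p = 0.0555) or 3 (0.75, adjusted p = 0.0758) and without control tumor 2 (0.75, adjusted p = 0.0763) or 3 (0.81, adjusted p = 0.0588).

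C6 had 1.12 ± 0.56 between the tumors (adjusted p = 0.229), and without control tumor 4 it was called higher in TCM tumors (2.37, adjusted p = 0.0036). Without both libraries of control mouse 4, C6, C8a and C9 were all called higher in TCM tumors (2.39, 0.89 and 0.83, adjusted p = 0.000811, 0.0474 and 0.0135), against 1.12, 0.48 and 0.24 with them. Vtn was then called higher as well (0.37, adjusted p = 0.0367) and C3 lower (-0.51, adjusted p = 0.0394). C8g had 0.39 ± 0.12 (adjusted p = 0.06) and was called higher without TCM tumor 1 (0.49, adjusted p = 0.0447) or 4 (0.46, adjusted p = 0.0439) or control tumor 1 (0.55, adjusted p = 0.0181). Masp1 had 0.32 ± 0.14 and was called higher without TCM tumor 4 (0.48, adjusted p = 0.0245). C3 was -0.49 ± 0.16 (adjusted p = 0.0678), with TCM tumors all below control tumors, and it was called lower without control peri-tumor library 4 (-0.49, adjusted p = 0.0442). The remaining members lay between the -0.39 of Kng1 and the 0.37 of C8b and were not called.

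Around them, 4 of 10 recruited macrophage markers were lower in TCM tumors and 0 higher, and 0 of 10 Kupffer cell markers were called. Of all genes tested, 4.55% were higher and 2.72% lower there. The sums of the recruited macrophage markers were 503 to 1426 CPM in TCM tumors against 1117 to 2667 CPM in control tumors, and their part in the members' values was not tested. Of 17 further complement components 2 were higher and 0 lower, and C1s2 was among the 2 (0.48, adjusted p = 0.0346). Of 14 cell-bound coagulation genes 3 were lower, among them Vwf, the von Willebrand factor of endothelium and platelets, with 6.16 ± 1.18 CPM in TCM tumors against 13.8 ± 3.06 CPM in control tumors (-1.16, adjusted p = 0.00367). Of the plasminogen activators and receptors, Plaur, the urokinase receptor, was lower with 2.01 ± 0.939 CPM in TCM tumors against 6.62 ± 0.615 CPM in control tumors (-1.72, adjusted p = 0.00892). Of 10 platelet markers 4 passed the filter, and all 4 had log2 fold changes below 0 (median -1.42, 1 called lower). The sums of the list were 4.47 to 6.36 CPM in TCM tumors against 8.48 to 15.8 CPM in control tumors. Of 10 neutrophil markers only 3 passed the filter, and all 3 lay below 0 too (median -2.74, 1 called lower). Their list summed to 2.74 to 10.8 CPM in TCM tumors against 5.46 to 105.6 CPM in control tumors, so the ranges overlapped. The highest sum came from 1 control tumor, and the median sums were 4.93 CPM in TCM tumors and 8.92 CPM in control tumors. The part of either list in the members' values was not tested.

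**Figure D5:**
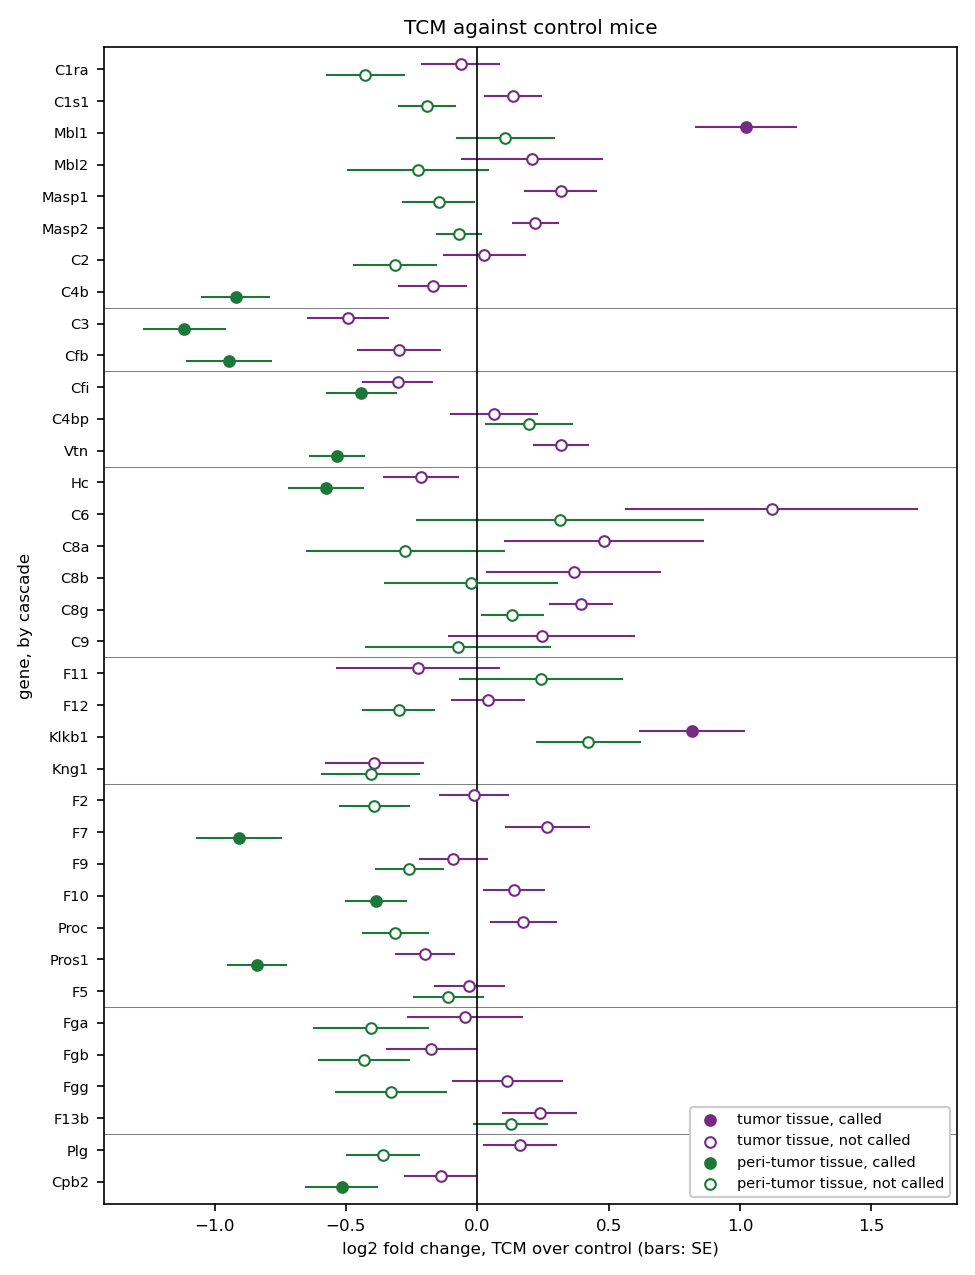
Log2 fold change of TCM over control mice for the 36 genes (rows, by cascade), in tumors (purple) and peri-tumor tissue (green), with bars for the SE and filled dots for calls at an adjusted p under 0.05. All 10 filled green dots lie left of 0, from -1.12 for C3 to -0.39 for F10, and the 2 filled purple dots, Mbl1 and Klkb1, lie right of it.

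The step between tumor and peri-tumor tissue was smaller in TCM mice for 2 members. Tested as a difference of the 2 tumor effects, 2 of the 36 genes had a higher value in TCM mice and 0 a lower one, where 0.706% of all genes were higher and 0.404% lower (1.11% in either direction). At an unadjusted p under 0.05 in edgeR, 12 were higher and 0 lower, and DESeq2 called 7 higher and 0 lower. The shares of all genes above are for the adjusted p in edgeR only, so these further counts have no such share beside them. The difference was above 0 for 34 of the 36 members, with a median of 0.38 against 0.030 over all genes. Vtn had log2 ratios of tumor to peri-tumor tissue of -0.67, -0.70, -0.47 and -0.54 in the 4 TCM mice against -1.54, -1.29, -1.43 and -1.50 in the 4 control mice. The ranges were apart, and the difference was 0.85 ± 0.15 (adjusted p = 0.0126). F7 had -0.27, -0.38, -0.082 and -0.32 in TCM mice against -1.34, -1.90, -1.26 and -1.06 in control mice, also apart (1.17 ± 0.23, adjusted p = 0.0254). For both genes the control peri-tumor tissue was the highest of the 4 groups and was called against TCM peri-tumor tissue, while the 2 groups of tumors were not called against each other (adjusted p = 0.082 for Vtn and 0.329 for F7).

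The call of F7 was lost without TCM peri-tumor library 1 or 3 (1.18 and 1.18, adjusted p = 0.0548 and 0.0531), TCM tumor 3 (1.10, adjusted p = 0.062), control peri-tumor library 1 (1.13, adjusted p = 0.0539) or control tumor 2 (1.18, adjusted p = 0.0586). With the mouse as a block Mbl1 was called as well (0.93, adjusted p = 0.0281, against 0.92 ± 0.27, adjusted p = 0.0967). C4b and Pros1 had 0.75 ± 0.19 and 0.64 ± 0.16 (adjusted p = 0.0625 and 0.0641) and were called without control peri-tumor library 4 (0.78 and 0.64, adjusted p = 0.0335 and 0.0435), and C4b also without TCM tumor 2 (0.86, adjusted p = 0.0365). C6 was called without control tumor 4 (2.06, adjusted p = 0.0471, against 0.81 ± 0.78), and F11 the other way without control peri-tumor library 4 (-1.05, adjusted p = 0.0335, against -0.47 ± 0.44). Without both libraries of control mouse 4, C6, C4b, Pros1 and F11 had 1.73, 0.79, 0.72 and -1.002 (adjusted p = 0.033, 0.0352, 0.0339 and 0.0482). Without any 1 of these libraries the count of 2 ran from 1 to 4. Of the neighbouring lists, Serpina10, the protein Z dependent inhibitor of F10, had a difference of 0.90 (adjusted p = 0.0304), and Cpn2, a subunit of the carboxypeptidase that trims anaphylatoxins, one of 0.67 (adjusted p = 0.0304). No other gene of the lists was called in this comparison.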

How the data were processed

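Total RNA of 16 mouse liver samples was made into stranded mRNA libraries, per the labels' protocols. The deposited table holds raw read counts per gene made by the authors, and FPKM values made by the authors were deposited for each sample separately. The submitters' processing notes name the builds mm10 and mm9, while no aligner, counter or strand setting is named in these sources. Counts without a gene symbol (115 IDs, at most 0.0171% of a library) stayed in the counts that were filtered and scaled.

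Members and gene lists were chosen with earlier results of these data known. All 36 members are named, and of each other list at most 4 called genes per comparison, by the largest change, except that some are not reported here. Counts were tested in edgeR 4.0.16 (R 4.3.3) with TMM scaling, a filter by expression with a count minimum of 10, 1 quasi-likelihood fit of the 4 groups (14865 genes, 12 residual degrees of freedom) and Benjamini-Hochberg adjustment. The script was tested on simulated counts. Libraries held 13947483 to 16194224 counts. Library pairs differed beyond sampling noise.

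Tumor and peri-tumor libraries of a mouse were paired by its code in the labels. Same-mouse deviations correlated at 0.043 to 0.235, and the mouse was a block in an alternative. The 4 mice per treatment are separate animals. Alternatives used RLE factors, DESeq2 1.42.0, limma 3.58.1 (voom with sample weights), no filter, 1 CPM in 4 libraries, the compared groups alone, and left out each library and control mouse 4. Promoter letters come from RefSeq and gene positions from GENCODE M21.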

Additional observations from a re-analysis of the deposited data

Results flagged for a closer look

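Of 144 member-by-group sets of 4 libraries, 6 held a library far from the other 3, and 5 of these 6 came from control mouse 4; chance flags about 1 in 20 sets. In control tumors, mouse 4 had 106.5 CPM of C6 against 14.3 to 18.8 CPM in the other 3, 533.7 CPM of C8a against 215.6 to 264.9 CPM, and 283.2 CPM of C9 against 87.5 to 117.7 CPM. Its F12 was low, at 378.9 CPM against 480.7 to 495.0 CPM. In control peri-tumor tissue mouse 4 had 7540.0 CPM of Fgg against 3665 to 4295 CPM, and mouse 2 had 826.4 CPM of Cfi against 955.3 to 979.4 CPM. The tumor effect differed between TCM and control mice, by edgeR's test of the difference itself, for Vtn (log2 difference 0.85) and F7 (1.17).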

How the results depend on the processing

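With DESeq2, 5 members were higher and 1 lower in TCM than in control tumors, and the tumor effect was higher in TCM mice for 7. Without control mouse 4, members called in TCM peri-tumor tissue were 1 higher, in TCM tumors 6 higher and 1 lower, and in the difference 5 higher and 1 lower. With limma-voom, 7 were higher in TCM tumors than in peri-tumor tissue, 16 lower in TCM peri-tumor tissue, 4 higher and 1 lower in TCM than control tumors, and 5 higher in the difference. With no filter, 2 were higher in TCM tumors than in peri-tumor tissue, and with only the compared groups fitted, 1 was higher in TCM than in control tumors. The counts over all genes in these fits are not given here. Leaving out 1 library at a time gave these ranges of calls: 2 to 3 higher and 22 to 24 lower in control tumors, 2 to 5 higher and 9 to 15 lower in TCM tumors, 0 to 1 higher and 6 to 12 lower in TCM peri-tumor tissue, 1 to 4 higher and 0 to 1 lower between tumors, and 1 to 4 higher and 0 to 1 lower in the difference. Over all genes tested, these fits called 2903 to 3471 higher and 2837 to 3347 lower in control tumors. In TCM tumors the ranges were 2208 to 2766 and 1846 to 2508, and in TCM peri-tumor tissue 524 to 1648 and 577 to 1580. Between tumors they were 271 to 929 and 124 to 595, and in the difference 43 to 401 and 15 to 264. RLE factors turned no sign and moved no count of members by over 1.5 times. The cause was not tested. With the replicate block, C2 was gained in control tumors, Cfb lost in TCM tumors, C1ra gained and Cfi and F10 lost in TCM peri-tumor tissue, and Mbl1 gained in the difference. TCM and control mice share only a number. It changed no other call.

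Some values changed sign, none of them called in the fit of all 16 libraries. Without control mouse 4, these were Hc 0.037 and Fga 0.23 in control tumors, C4bp 0.00068 in TCM tumors, C8a 0.22, C8b 0.24 and C9 0.30 in TCM peri-tumor tissue, and C2 -0.070, F12 -0.0045 and Fga 0.026 between tumors. With limma-voom they were Hc 0.0098 and Fga 0.22 in control tumors, C4bp 0.043 in TCM tumors, C8b 0.13 and C9 0.065 in TCM peri-tumor tissue, and C2 -0.051, F12 -0.0029 and Fga 0.0047 between tumors. With the replicate block they were Fga 0.063 in control tumors, C4bp 0.00043 in TCM tumors, and C8b 0.055 and C9 0.021 in TCM peri-tumor tissue. F2 between tumors was 0.0041 with 1 CPM in 4 libraries and 0.00022 with no filter.

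Leaving out 1 library gave, in control tumors, C4bp -0.017 to 0.28, Hc -0.16 to 0.029, F2 -0.075 to 0.11, Fga -0.17 to 0.29 and Fgb -0.043 to 0.29. In TCM tumors it gave C2 -0.14 to 0.053, C4b -0.035 to 0.17, C4bp -0.083 to 0.12, F12 -0.046 to 0.14, Pros1 -0.033 to 0.12, Fgg -0.018 to 0.15 and Cpb2 -0.22 to 0.0020. In TCM peri-tumor tissue it gave C8a -0.49 to 0.22, C8b -0.25 to 0.24 and C9 -0.25 to 0.31. Between tumors it gave C1ra -0.17 to 0.065, C2 -0.095 to 0.17, F12 -0.050 to 0.16, F2 -0.11 to 0.093, F9 -0.14 to 0.0086, F5 -0.089 to 0.10 and Fga -0.13 to 0.041. In the difference it gave C4bp -0.29 to 0.016, C9 -0.062 to 0.88 and Kng1 -0.093 to 0.17.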
